A study of Mus musculus with 48 samples.

Results

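The 8 genes described here, Psmb8, Psmb9, Psmb10, Tap1, Tap2, Tapbp, B2m and Nlrc5, encode parts of the machinery that cuts cytosolic proteins into peptides and loads them onto MHC class I molecules. They were chosen by name, and each was read from the brightest probe set that carried its symbol alone, out of 22180 gene symbols on the array, 15242 of which were tested. All 8 were tested. Nlrc5 lay above the array's median in 46 of 48 arrays and the other 7 genes in all 48. Tapbp was the 1 gene with a further, dimmer probe set of its own.

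Class I presentation starts in the proteasome. Under interferon, the catalytic subunits of its core are exchanged for Psmb8, Psmb9 and Psmb10, which forms the immunoproteasome. The transporter made of Tap1 and Tap2 carries the peptides into the endoplasmic reticulum, tapasin (Tapbp) holds empty class I molecules next to it, and beta-2-microglobulin (B2m) is the light chain that every class I heavy chain needs. Nlrc5 is a transactivator of class I genes, the counterpart of Ciita for class II. Interferon-gamma is the classical inducer of the whole set.

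The samples were whole tissue of the squamocolumnar junction and cardia of mice, 1 Affymetrix array each, 48 arrays in 16 groups of 3, from a study of risk factors in a mouse model of Barrett oesophagus. The model, labelled pl2 or pL2 and written pL2 here, overproduces interleukin-1 beta in squamous epithelium. The facilities MRI and Freising each supplied a wild-type (WT) and a pL2 group on chow, and Freising also a WT and a pL2 group on a high fat diet (HFD). From MRI, all on chow, came a line labelled FXR, after a bile acid receptor, the cross pL2_FXR, and pL2_IL8 mice, which add interleukin-8. These groups were 12 months old, except for a pL2_IL8 group of 9 months. A further 6 pL2 groups from MRI on chow carried Lgr5 (stem cell) or Dclk (tuft cell) drivers with Notch1fl_fl, Notch2fl_fl or Notch2IC_LacZ. They were 9 to 13 months old and had tamoxifen ages of 3 to 6 months, whereas the pL2 group they are compared with has none in the labels.

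The labels do not say whether the FXR allele removes or adds the receptor, in which share of cells a driver acted, or that samples of a group came from separate litters or cages. P-values therefore measure the spread between these samples. The sample titles fall into series that follow the experiment. All Freising samples share a series, and WT, pL2, FXR and pL2_FXR of MRI share another. The pL2_IL8 groups have their own, and so do the Notch lines. Title series can therefore not be told apart from facility, nor from line where pL2_IL8 or a Notch line is compared with pL2. In whole tissue, fewer cells of a type and less RNA per cell cannot be told apart either. Gastric markers had a mean log2 signal between 11.41 and 12.75 in every array, and squamous markers lay between 7.71 and 10.88, lowest in the 3 FXR arrays. In 10 arrays the mean of hepatocyte or intestinal markers exceeded 8, and results are also given without them where that ends a call. The labels give no sex. Xist exceeded the mean of the Y-linked genes in all 3 WT arrays of MRI, by 7.30 to 8.01, and lay below it in all 3 WT arrays of Freising on chow, with differences of -3.54 to -3.42. All 12 Freising arrays were of the second kind and all 6 arrays of the FXR and pL2_FXR groups of the first, while pL2 at MRI held 1 array of the first and 2 of the second kind. Facility, title series and sex can therefore not be told apart in WT. Sex is also unevenly spread in the transgene comparison at MRI and those built on it, and in the facility comparison in pL2. The same holds for pL2_FXR against pL2, the comparison of IL8 ages and most Notch comparisons. Correlations between arrays of a group ranged from 0.918 to 0.989.

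The promoters of 6 members are held in RefSeq's table for build GRCm38.p6. The sequences of B2m and of the stretch between Psmb9 and Tap1 are shown because B2m and Tap1 are 2 of the 3 members that differed among groups, and because Psmb9 and Tap1 are read in opposite directions from 1 shared stretch of 225 bases. Capitals mark matches, on either strand, to the interferon-type element (GAAA, any 2 bases, GAAA), the NF-kappa-B-type element (GGGAA, any 3 bases, CC), the CCAAT box and the cyclic AMP-type core TGACG. Both are written 5′ to 3′ on the plus strand, B2m from chr2:122147437-122147686 and the shared stretch from chr17:34187331-34187555.
B2m: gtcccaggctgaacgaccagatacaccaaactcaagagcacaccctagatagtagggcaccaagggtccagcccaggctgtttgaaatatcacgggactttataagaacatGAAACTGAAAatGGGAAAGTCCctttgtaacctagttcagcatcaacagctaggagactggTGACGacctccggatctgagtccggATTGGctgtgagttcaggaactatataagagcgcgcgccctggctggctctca
Psmb9 to Tap1: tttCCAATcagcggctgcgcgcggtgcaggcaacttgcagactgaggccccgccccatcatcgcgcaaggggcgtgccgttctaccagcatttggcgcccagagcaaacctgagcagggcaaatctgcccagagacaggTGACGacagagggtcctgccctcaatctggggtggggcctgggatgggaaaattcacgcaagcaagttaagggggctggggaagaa

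In B2m the interferon-type match lay at bases -139 to -130 from the start, followed by the NF-kappa-B-type match at -127 to -118. The first of these motifs occurred in 2.98% and the second in 4.94% of all 32851 windows of 250 bases before a start. Neither motif was found in the windows of the other 5 members. Psmb8 alone held the STAT-type element TTCNNNGAA, at -97 to -89, a motif of 7.02% of windows. The CCAAT box, present in 33.8% of windows, was found in B2m, Tap1, Psmb9 and Tapbp, and TGACG, present in 17.8%, in B2m, Tap1 and Psmb9. For Tap1 and Psmb9 these are the same sites in the shared stretch, counted for both genes. None of the marked matches overlap, and a match describes letters only. No promoter is shown for Tap2 and Nlrc5.

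Levels are log2 signals, so a difference of 1 is a 2-fold difference, and levels of different probe sets cannot be set against each other. Over the 16 groups, 3 of the 8 genes differed by limma's moderated F test, adjusted over all tested genes, against 52.3% of all tested genes. They were Nlrc5 (F = 5.04, adjusted p = 0.000376), B2m (F = 4.44, adjusted p = 0.000936) and Tap1 (F = 2.26, adjusted p = 0.0460). For the immunoproteasome subunits, Tap2 and Tapbp the adjusted p ranged from 0.195 for Psmb10 to 0.780 for Psmb8. Without the WT chow group of Freising, Nlrc5 and B2m kept their calls (adjusted p = 0.000638 and 0.00705), and Tap1 lost it (adjusted p = 0.187 in limma). When any 1 of the 48 arrays was left out, Nlrc5 and B2m stayed called each time, whereas Tap1 lost its call in 32 of 48 cases (adjusted p up to 0.108, limma).

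**Figure D1:**
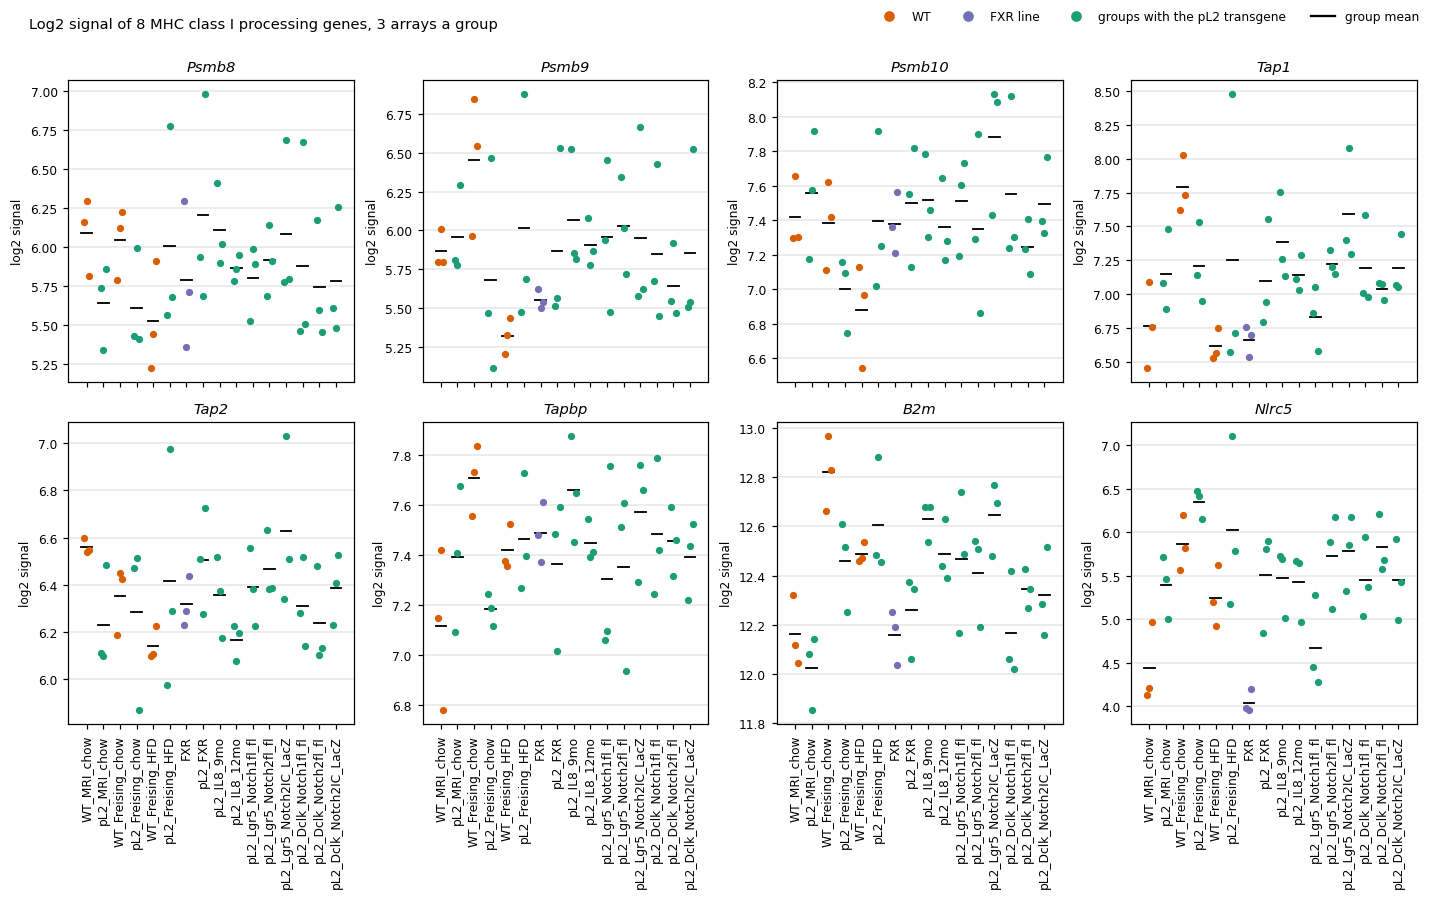
Log2 signal (y axis) of each of the 8 genes in the 16 groups (x axis); points are arrays, black bars group means, and colours separate WT, the FXR line and groups with the pL2 transgene. Nlrc5 spans group means from 4.04 in the FXR line to 6.35 in pL2 mice of Freising on chow, while Tap2 spans 6.14 to 6.63.

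The order of the groups differed from gene to gene. WT mice of Freising on chow had the highest group mean of Psmb9 (6.45), Tap1 (7.79), Tapbp (7.71) and B2m (12.82). WT mice of Freising on HFD had the lowest mean of Psmb8 (5.53), Psmb9 (5.32), Psmb10 (6.88), Tap1 (6.62) and Tap2 (6.14). From lowest to highest group the means spanned 1.40-fold for Tap2, 1.73-fold for B2m, 2.26-fold for Tap1 and 4.93-fold for Nlrc5. The lowest Nlrc5 group, the FXR line, had a mean of 4.04, where array medians ran from 4.03 to 4.27. Neighbouring groups in these orders overlapped in their arrays for 7 of the 8 genes, and for Psmb9 in all but 1 pair. The lowest B2m group was pL2 on chow at MRI (12.03) and the lowest Tapbp group WT on chow at MRI (7.12).

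The model was used for 24 comparisons, which gave 192 values for the 8 genes. Of these, 5 passed at an adjusted p below 0.05, in 3 comparisons. All 5 were increases, and they concerned Nlrc5, B2m and Tap1. The remaining 21 comparisons had no call.

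**Figure D2:**
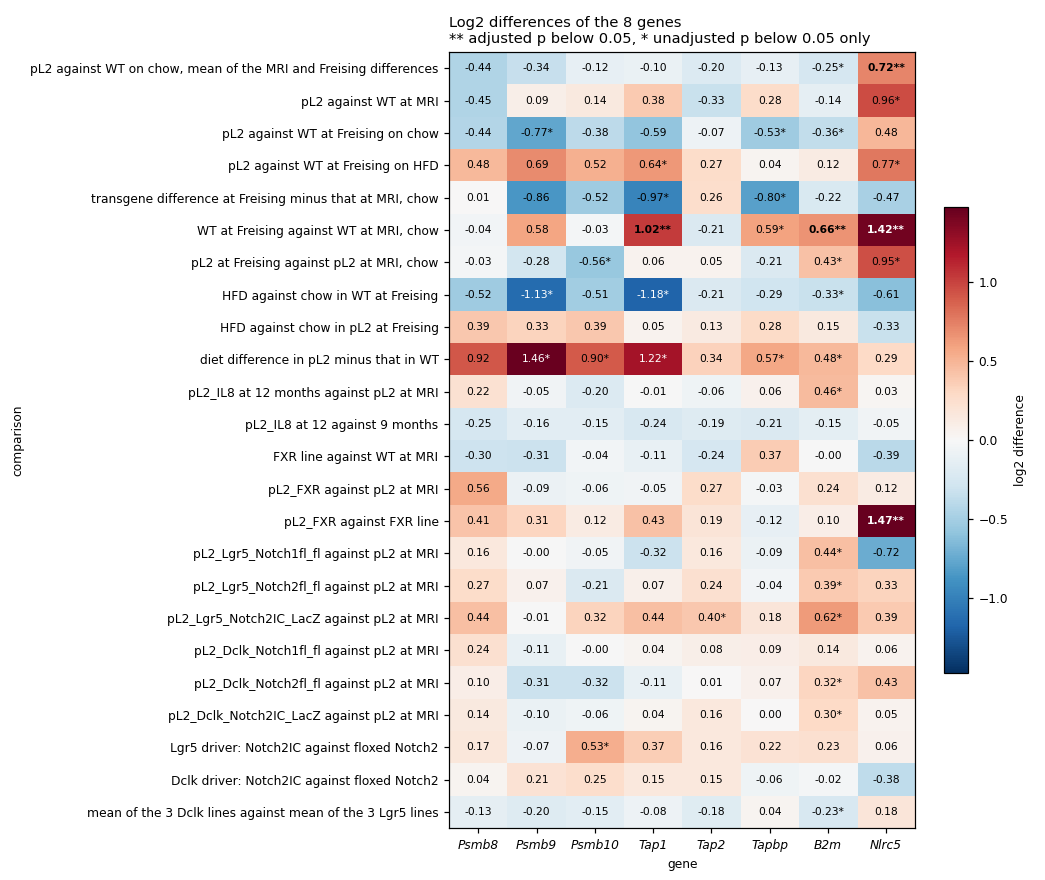
Log2 differences of the 8 genes (x axis) in the 24 comparisons (y axis), coloured from blue (lower) to red (higher). Double asterisks mark the 5 values with an adjusted p below 0.05, and single asterisks those with only an unadjusted p below 0.05.

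The 2 facilities were compared first in WT mice on chow, a comparison in which the sexes and the title series are separated along with the facilities. There 3 members were higher at Freising: the transporter subunit Tap1, the light chain B2m and the transactivator Nlrc5. In this comparison 8.14% of all tested genes were called, 4.42% as higher. B2m measured 12.32, 12.12 and 12.04 at MRI and 12.66, 12.97 and 12.83 at Freising. The groups did not overlap, and B2m was 0.66 ± 0.14 (SE) higher at Freising, a 1.58-fold difference (limma, adjusted p = 0.00470). Tap1 measured 6.45, 7.09 and 6.76 at MRI and 7.62, 8.03 and 7.73 at Freising. All 3 Freising arrays again lay above all 3 MRI arrays, by 1.02 ± 0.29 on average, 2.03-fold (limma, adjusted p = 0.0276). Nlrc5 measured 4.13, 4.22 and 4.97 at MRI against 5.57, 6.20 and 5.82 at Freising. This was the widest gap of the 8 genes, 1.42 ± 0.37 or 2.68-fold (limma, adjusted p = 0.0164). The MRI values 4.13 and 4.22 lay within the range of array medians, 4.03 to 4.27.

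Of the other members in the same comparison, Tapbp differed by 0.59 ± 0.19 without overlap, just short of a call (limma, adjusted p = 0.0516), and it was called under 5 of the 11 alternatives. Its dimmer probe set differed by 0.15 ± 0.22. The immunoproteasome subunit Psmb9 differed by 0.58 ± 0.36, whereas Psmb8 (-0.04 ± 0.33), Psmb10 (-0.03 ± 0.26) and Tap2 (-0.21 ± 0.19) had values near or below 0. The median over the 8 genes was 0.59, against -0.01 over all tested genes. In 5 of the 8 genes the groups did not overlap, as in 33.9% of all genes; 4 of the 5 were higher at Freising and Tap2 was lower.

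The B2m call held when any 1 of the 6 arrays was left out. Tap1 lost its call without replicate 1 or 3 of WT at MRI, or replicate 2 or 3 of WT at Freising (adjusted p = 0.0653 to 0.135, limma). Nlrc5 lost its call without replicate 1 or 2 of WT at MRI, or replicate 2 or 3 of WT at Freising (adjusted p = 0.0527 to 0.0923, limma). With those 10 liver-marker or intestinal-marker arrays left out, 1 of which is a WT array of MRI, Tap1 differed by 0.87 (adjusted p = 0.121) and Nlrc5 by 1.27 (adjusted p = 0.0501, limma). With the sex-linked score in the model, whose slope rests on the spread within groups, B2m kept its call (adjusted p = 0.0416), and Tap1 (0.0692) and Nlrc5 (0.0512) lost it. With squamous and skeletal muscle markers in the model B2m was again the 1 call, and Tap1 (adjusted p = 0.228) and Nlrc5 (0.115, limma) were not called.

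Other gene groups moved with this facility difference, as did the sex-linked genes. Of 30 type I interferon response genes 25 were higher at Freising, with a median of 1.67, and the mean of the list ran from 6.64 to 7.46 in the 3 Freising arrays against 5.09 to 5.74 at MRI. Of 19 interferon-gamma response genes 0 were called in limma. Skeletal muscle markers were lower at Freising in 7 of 8 cases, with list means of 4.02 to 4.24 against 5.95 to 6.28. None of 11 T and NK cell markers was called, and their mean was 3.48 to 3.96 at Freising and 3.73 to 4.11 at MRI. The muscle markers were in the model that ended the Tap1 and Nlrc5 calls, and the part of the type I interferon genes in the class I result was not tested.

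Among genes of the same pathway, the class I heavy chain H2-K1 was 0.97 ± 0.20 higher at Freising (limma, adjusted p = 0.00343). H2-T24 was also higher, so that 2 of 10 heavy chain genes rose and 0 fell. Heavy chain genes are near copies of each other, and how signal divides among them is uncertain. Erap1, the aminopeptidase that trims peptides in the endoplasmic reticulum, was 0.84 ± 0.20 lower (limma, adjusted p = 0.00893), the 1 call among 10 other loading genes. The constitutive core subunits replaced in the immunoproteasome, Psmb5, Psmb6 and Psmb7, differed by -0.10 ± 0.16, -0.35 ± 0.14 and -0.51 ± 0.19 and were not called. In the constitutive core as a whole 1 of 13 genes, Psmb2, rose and 1, Psma7, fell.

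In pL2 mice on chow, the same facility comparison had no member called by limma, where 1.21% of all genes were called. An unadjusted p below 0.05 was found for 3 members and 19.2% of all genes. B2m was 12.08, 11.85 and 12.14 at MRI and 12.61, 12.51 and 12.25 at Freising, a difference of 0.43 ± 0.14 (adjusted p = 0.0975, limma). Nlrc5 was 5.72, 5.46 and 5.01 at MRI and 6.48, 6.41 and 6.15 at Freising, a difference of 0.95 ± 0.37 (adjusted p = 0.158, limma). Neither gene's groups overlapped, and both lay higher at Freising, as in WT. Groups without overlap were seen for 3 of the 8 genes and 21.6% of all genes. Tap1 differed by 0.06 ± 0.29 and Psmb10 by -0.56 ± 0.26.

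The transgene was examined as pL2 against WT on chow, averaged over both facilities. Nlrc5 was the 1 member called, where 21.9% of all genes were, 9.05% as higher. It was 0.72 ± 0.26 higher in pL2, 1.65-fold (limma, adjusted p = 0.0460). Within MRI, where the groups did not overlap and WT values of 4.13 and 4.22 lay near the array medians, the difference was 0.96 ± 0.37 (adjusted p = 0.0597, limma). Within Freising on chow it was 0.48 ± 0.37, with 5.57, 6.20 and 5.82 in WT overlapping 6.48, 6.41 and 6.15 in pL2. The mean call was lost when any of 9 of the 12 arrays was left out: replicate 1 or 2 of WT or of pL2 at MRI, replicate 1, 2 or 3 of pL2 at Freising, or replicate 1 or 3 of WT at Freising (adjusted p = 0.0591 to 0.111, limma). It was also lost without the filter on low signals (adjusted p = 0.0612), without the same 10 arrays (0.0622), with T and NK cell markers in the model (0.0946), and with squamous and skeletal muscle markers in it (0.0900).

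The other 7 members had values below 0 in this mean comparison, from -0.44 ± 0.24 for Psmb8 to -0.10 ± 0.21 for Tap1, and none was called. The 2 facilities differed in this. At MRI 5 of the 8 values were above 0, with a median of 0.11, and at Freising on chow 1 was, with a median of -0.41. The Freising part uses the WT chow group that had the highest means of Psmb9, Tap1, Tapbp and B2m. B2m came nearest, at -0.25 ± 0.10 (limma, adjusted p = 0.0776). Of 30 type I interferon response genes 18 fell, and of 19 interferon-gamma response genes 4 fell, among them Igtp, an interferon-inducible GTPase, by 1.43. At MRI the type I list means were 5.25, 5.41 and 5.85 in pL2, not below the 5.14, 5.74 and 5.09 of WT. At Freising on chow they were 5.23, 5.40 and 4.95 in pL2 against 6.64, 7.46 and 6.94 in WT. T and NK cell markers were higher for 3 of 11 and macrophage markers lower for 8 of 11 genes, and the part of these cells in the class I values was not tested beyond the model with T and NK cell markers. The heavy chain gene H2-Q10 rose by 2.35 ± 0.40 (limma, adjusted p = 0.000117), the 1 call among 10 heavy chains.

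At MRI alone, 0 of the 8 genes were called by limma, against 23% of all genes. An unadjusted p below 0.05 was found for 1 member and 34.9% of all genes. Tap1 differed by 0.38 ± 0.29 and Psmb8 by -0.45 ± 0.33. The groups did not overlap for 2 of the 8 genes, Tap2 and Nlrc5, and for 36.6% of all genes. At Freising on chow there was likewise no call, against 1.64% of all genes, and 3 members had an unadjusted p below 0.05, against 16.2%. There Tapbp measured 7.56, 7.73 and 7.84 in WT and 7.25, 7.19 and 7.12 in pL2, and B2m 12.66, 12.97 and 12.83 in WT and 12.61, 12.51 and 12.25 in pL2. Both genes were lower in every pL2 array, Tapbp by 0.53 ± 0.19 (adjusted p = 0.161) and B2m by 0.36 ± 0.14 (adjusted p = 0.198, limma). With Tap1, 3 of the 8 genes had groups without overlap, against 26.5% of all genes. The test of whether the transgene difference itself differed between facilities called no member, against 1.76% of genes. The unadjusted p lay below 0.05 for 2 members and 18.8% of genes, and Tapbp had the lowest adjusted p of 0.107 in limma.

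The diet comparison in WT mice of Freising had no member called by limma, against 0.164% of all genes. An unadjusted p below 0.05 was found for 3 members and 4.33% of all genes. All 8 values were below 0, with a median of -0.51 against 0.01 over all genes. Tap1 measured 7.62, 8.03 and 7.73 on chow and 6.53, 6.57 and 6.75 on HFD, without overlap. Its difference was -1.18 ± 0.29 (limma, unadjusted p = 0.000311, adjusted p = 0.122). Psmb9, whose start lies next to that of Tap1, measured 5.96, 6.85 and 6.54 on chow and 5.21, 5.33 and 5.44 on HFD. These groups did not overlap either, and the difference was -1.13 ± 0.36 (limma, adjusted p = 0.530). B2m differed by -0.33 ± 0.14 and Tapbp by -0.29 ± 0.19, also without overlap, so that 4 of the 8 genes had separate groups, against 15.8% of all genes.

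The WT chow group is the same one that stood highest in the facility comparison, so both comparisons share its 3 arrays. H2-K1 had a value of -0.87 ± 0.20 under HFD (limma, adjusted p = 0.0741). Of 30 type I interferon response genes 17 fell, with a median of -1.84 over the list. Among 19 interferon-gamma response genes 0 were called, and T and NK cell means were 3.53 to 3.77 on HFD against 3.48 to 3.96 on chow.

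In pL2 mice the diet comparison called no gene at all in limma (0% of genes; 872 of 15242 at an unadjusted p below 0.05, none of them a member). The values of the 8 genes ran from -0.33 for Nlrc5 to 0.39 for Psmb10. For Tap1 the 95% interval was -0.55 to 0.66. The difference between the diet effects of pL2 and WT was above 0 for all 8 genes, up to 1.46 ± 0.51 for Psmb9. Of the 8, 5 had an unadjusted p below 0.05, against 5.81% of all genes. None was called in limma (lowest adjusted p = 0.643), against 0.0197% of all genes. Without replicate 2 of pL2 on HFD the value was 0.61 in place of 1.22 for Tap1, 0.06 in place of 0.34 for Tap2 and -0.26 in place of 0.29 for Nlrc5. It was 1.03 in place of 1.46 for Psmb9, 0.64 in place of 0.90 for Psmb10 and 0.53 in place of 0.92 for Psmb8. For Tapbp it was 0.44 in place of 0.57, and for B2m 0.34 in place of 0.48. All genes but Nlrc5 thus stayed above 0, and 1 member had an unadjusted p below 0.05.

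On HFD, 0 members were called between pL2 and WT by limma, against 1.16% of genes, and 2 had an unadjusted p below 0.05, against 14.9%. All 8 values were higher in pL2, with a median of 0.50. Much of this pattern rested on replicate 2 of the pL2 group. Tap1 measured 6.57, 8.48 and 6.71 in pL2 on HFD against 6.53, 6.57 and 6.75 in WT on HFD. Nlrc5 measured 5.17, 7.11 and 5.78 against 5.19, 4.93 and 5.62. In both genes 1 array stood far above the other 2, and without it the median over the 8 genes was 0.06, with 5 values above and 3 below 0. For Psmb9, all 3 arrays of pL2 on HFD (5.47, 6.88 and 5.69) lay above those of WT on HFD (5.21, 5.33 and 5.44).

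In the FXR line, Nlrc5 had the lowest level of all 16 groups, with 3.98, 3.95 and 4.20. Array medians ran from 4.03 to 4.27, so at 3.98 and 3.95 Nlrc5 lay below the median of its array. In pL2_FXR mice it measured 4.84, 5.80 and 5.90. The groups did not overlap and differed by 1.47 ± 0.37, 2.77-fold (limma, adjusted p = 0.00968), where 10.1% of all genes were called, 5.15% as higher. Without replicate 2 or replicate 3 of pL2_FXR the call was lost (adjusted p = 0.0672 and 0.0667, limma). With squamous and skeletal muscle marker means in the model the difference was 1.11 (adjusted p = 0.284, limma). Squamous marker means were 7.71 to 8.47 in the FXR line and 9.27 to 9.98 in pL2_FXR, and 2 of 11 T and NK cell markers were higher in pL2_FXR.

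No other member was called between pL2_FXR and the FXR line. Tap1 was nearest in size at 0.43 ± 0.29, without overlap, and Psmb8 differed by 0.41 ± 0.33. Groups without overlap were thus seen for 2 of the 8 genes, against 31.6% of all genes. H2-Q10 rose by 3.04 ± 0.57 (limma, adjusted p = 0.000504), Pdia6, a protein disulphide isomerase, by 0.55 and Bag6, a chaperone, fell by 0.45. Against WT, the FXR line had 0 members called by limma, against 2.12% of genes, and 0 at an unadjusted p below 0.05, against 15.8%. Nlrc5 differed there by -0.39. Against pL2, pL2_FXR had likewise 0 called in limma, against 0.0853% of genes, and 0 at an unadjusted p below 0.05, against 7.32%.

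The IL8 line at 12 months and each of the 6 Notch lines were compared with pL2 on chow at MRI, which is the lowest of all groups for B2m, and these 7 comparisons share its 3 arrays (12.08, 11.85 and 12.14). In pL2_IL8 mice of 12 months B2m was 12.44, 12.63 and 12.39, a difference of 0.46 ± 0.14 without overlap (limma, adjusted p = 0.0831). It was the 1 member with an unadjusted p below 0.05, and 0 were called, against 1.82% of genes. B2m was also the 1 member without overlap, which 21.4% of genes showed. Between 12 and 9 months of pL2_IL8 all 8 values were below 0, from -0.25 to -0.05, and limma called 0 of them and 0% of all genes. An unadjusted p below 0.05 was found for 0 members and 7.77% of all genes.

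In the 9 Notch comparisons limma called no member, and 8 of 72 values had an unadjusted p below 0.05. Of all genes, 5.20% to 15.4% had such a p in these comparisons. The share of all genes called was 0.144%, 0.0525% and 0.138% for the Lgr5 lines with Notch1fl_fl, Notch2fl_fl and Notch2IC_LacZ against pL2. It was 0%, 0.256% and 0.0197% for the corresponding Dclk lines. Between Notch2IC_LacZ and Notch2fl_fl it was 0.0722% with Lgr5 and 0.0328% with Dclk, and 0.945% between Dclk and Lgr5 lines. B2m accounted for 6 of the 8 values, 5 of them against pL2. The sixth was lower in the Dclk lines than in the Lgr5 lines, at -0.23 ± 0.08 (limma, adjusted p = 0.161). With Lgr5 and Notch2IC_LacZ it was 12.48, 12.77 and 12.69, or 0.62 ± 0.14 above pL2 (limma, adjusted p = 0.0717), the 1 member without overlap, against 10.1% of genes. With Lgr5, B2m differed by 0.44 for Notch1fl_fl and 0.39 for Notch2fl_fl, and with Dclk by 0.32 for Notch2fl_fl, 0.30 for Notch2IC_LacZ. The Dclk line with Notch1fl_fl, at 0.14, was not among the 8 values. Nlrc5 with Lgr5 and Notch1fl_fl was 4.46, 5.28 and 4.28, a value of -0.72 against pL2 that was not called.

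**Figure D3:**
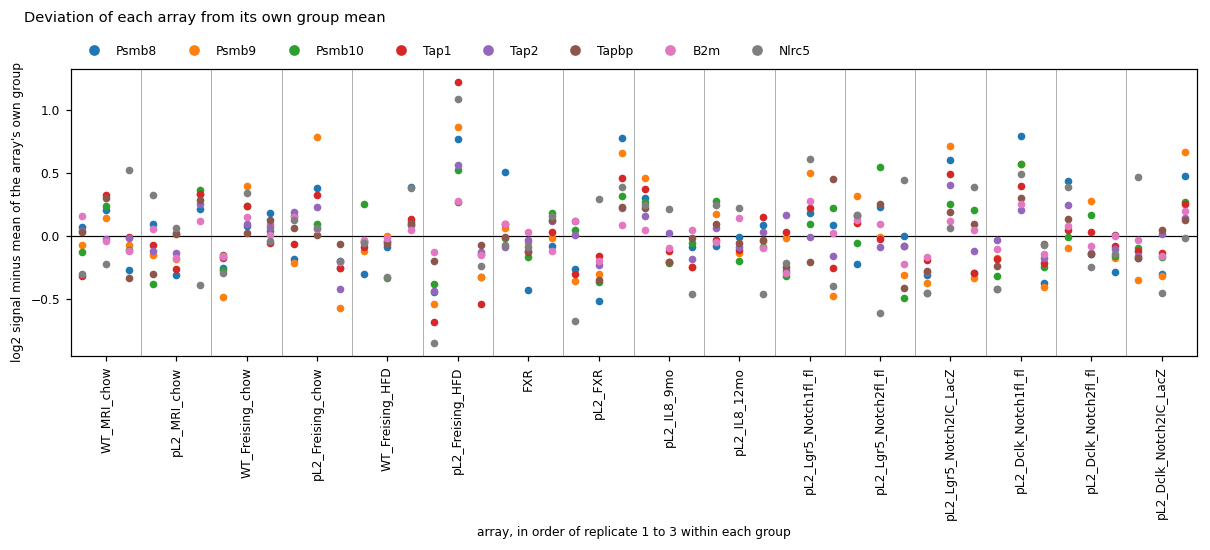
Deviation of each array from the mean of its own group (y axis, log2) for the 8 genes (colours); arrays follow each other by group along the x axis. The genes lie together above or below 0 in many arrays, most widely in replicate 2 of pL2 on HFD, from 0.27 to 1.22.

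Within groups the 8 genes tended to move together from mouse to mouse, by counts that were not made for other sets of genes. In 8 arrays all 8 genes lay above the mean of their own group, and in 7 arrays all 8 lay below it. The extreme case was replicate 2 of pL2 on HFD, where the deviations ran from 0.27 to 1.22 and 3 of the 8 genes had their highest value of all 48 arrays. The same array had the highest value of 6.19% of all tested genes. Its T and NK cell marker mean of 5.10 and its interferon-gamma list mean of 6.44 were the highest of the 48 arrays. So were its means of macrophage (7.03), dendritic cell (5.67) and class II (7.78) genes, while its gastric mean was 11.51 against a median of 12.43. Cxcl9, a chemokine induced by interferon-gamma, measured 9.30 there and 4.49 and 5.48 in the other two arrays of the group.

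Across the 48 arrays, which share groups and normalisation, the 28 pairs of the 8 genes had Pearson correlations from 0.05 to 0.81, with a median of 0.50. After subtraction of group means the median was 0.59. Tap1 followed the mean of the 8 scaled genes most closely (r = 0.89) and Nlrc5 least (r = 0.50). Of the other genes tested, the ones most like that mean included H2-K1 (r = 0.77), Irf1, an interferon-induced transcription factor (0.77), H2-Q4 (0.76), Parp9 (0.72), Irgm1 (0.69), Cxcl9 (0.69), Igtp (0.67), Zbp1 (0.66) and Samhd1 (0.65). The 95th percentile over all tested genes was 0.36. With group means removed, Irf1 (0.86), Cxcl9 (0.83), Erap1 (0.82), Igtp (0.82), Tapbpl (0.81), Irgm1 (0.79), Irgm2 (0.79), H2-Q4 (0.77) and Nkg7 (0.76) stood highest. By this measure the 95th percentile over all tested genes was 0.42. In each set of 10 there was 1 further, predicted gene.

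**Figure D4:**
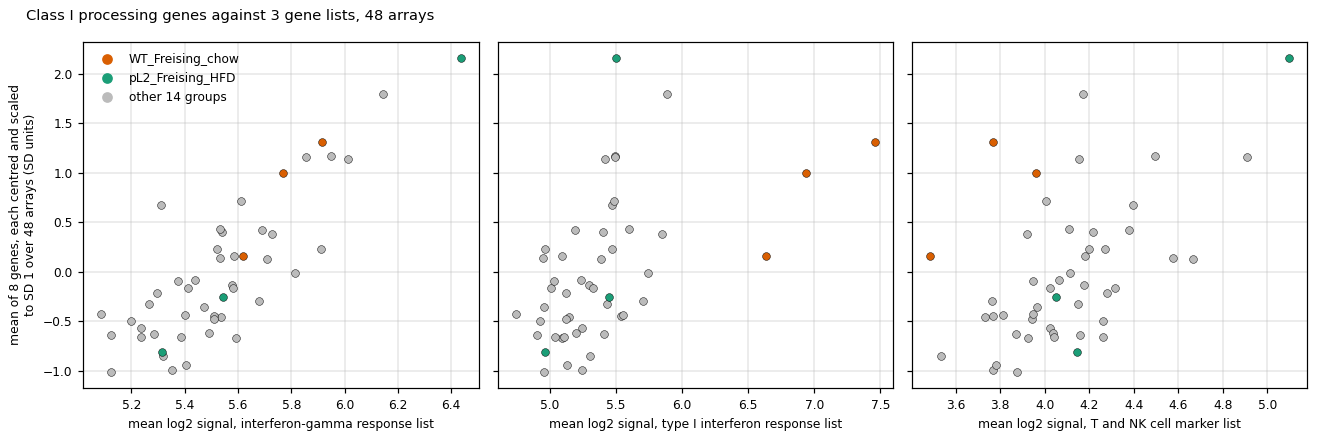
Mean of the 8 genes, each centred and scaled over the 48 arrays (y axis, SD units), against the mean log2 signal of 3 lists (x axes); points are arrays. WT mice of Freising on chow (orange) stand apart on the type I interferon axis, and 1 pL2 array on HFD (green) is highest on the interferon-gamma and the T and NK cell axes.

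The mean of the 8 genes followed the interferon-gamma response list with r = 0.83 (Spearman's rho = 0.75) over 48 arrays, and r = 0.75 without the 2 arrays farthest from the list's median. With group means removed r was 0.92 for this list, 0.68 for the type I interferon list, 0.68 for T and NK cell markers and 0.57 for the constitutive core. For the type I interferon list r was 0.53 (rho = 0.58; 0.45 without the 2 farthest), and for T and NK cell markers 0.53 (rho = 0.46; 0.33 without them). For the constitutive core of the proteasome it was 0.37 (rho = 0.31; 0.32 without them), and for squamous markers -0.05 (rho = -0.10; -0.20 without them). Of these 5 lists, r was highest for the interferon-gamma list. Outside these 5, r was 0.73 for regulators of class I and II genes, 0.67 for class I heavy chains and 0.57 for class II genes. Over the 16 group means r was 0.63 for the interferon-gamma list and 0.73 for the heavy chains.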

How the data were processed

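Total RNA of 48 whole-tissue samples was measured on Affymetrix arrays. The deposited values are log2 signals per probe set, made by the authors with RMA in Affymetrix Expression Console, per the submitters' processing notes; the version and genome build are not given in the sources used here. RMA aligns array distributions, so differences are relative to the whole array. Of 34390 probe sets, 23521 with 1 symbol were used, the brightest per gene. Tests covered the 15242 genes whose signal exceeded the median of its array in 3 arrays or more. A model with 16 group means (32 residual degrees of freedom) was fitted with limma 3.58.1 in R 4.3.3, two-sided, with Benjamini-Hochberg adjustment, and called at an adjusted p below 0.05. The SE shares 1 spread over all groups. The procedure was tested on simulated data. The number of arrays limits the precision. Alternatives were other filters, probe set means, the compared groups alone, array weights, trended moderation, cyclic loess, marker covariates and left-out arrays. Named genes were the 8 members, their counterparts and regulators, up to 4 called genes per pathway list, and the genes most like the members. The members and lists were chosen with earlier results of these data known. Replicate numbers follow accession order and pair nothing.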

Additional observations from a re-analysis of the deposited data

How the results depend on the processing

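Of the 5 calls, B2m between facilities in WT kept its direction and its call in all 11 alternatives (0.54 to 1.01). Nlrc5 and Tap1 in the same comparison were no longer called in 3 each, Nlrc5 in the mean transgene comparison in 4, and Nlrc5 in pL2_FXR against the FXR line in 1. No call changed direction. With array quality weights, whose estimation stopped before convergence, more members were called: 7 over the 16 groups, 5 for the mean transgene difference, 4 for the transgene at Freising on chow, 3 each for the transgene at MRI, its difference between facilities, the facilities in pL2 and HFD in WT, 2 each for the difference of diet effects and the Lgr5 line with Notch2fl_fl, and 1 each for IL8 at 12 months, pL2_FXR against pL2, the Lgr5 lines with Notch1fl_fl and Notch2IC_LacZ and the Dclk lines with Notch2fl_fl and Notch2IC_LacZ. With squamous and skeletal muscle covariates 1 was called over the 16 groups, 1 each for the facilities in WT and in pL2, IL8 at 12 months and the Lgr5 line with Notch2IC_LacZ, and 0 for pL2_FXR against the FXR line and the mean transgene difference. With the T and NK cell covariate 2 were called for the mean transgene difference, 2 for the transgene at Freising on chow, and 1 each for the transgene at MRI, its difference between facilities and HFD in WT. The facilities in WT had 4 calls, with Tapbp added, under the stricter filter, array weights, trended robust moderation, cyclic loess and the T and NK cell covariate. They kept 1 call with the sex-linked covariate and 1 when the 10 liver-marker or intestinal-marker arrays were left out, which also left 0 for the mean transgene difference, as did no filter. HFD in WT had 1 call when the compared groups were fitted alone, the Lgr5 line with Notch2IC_LacZ 1 with trended robust moderation, and the transgene at MRI 1 with cyclic loess. The cause was not tested. Leaving out 1 array gave 1 to 3 calls for the facilities in WT, 2 to 3 over the 16 groups, and 0 to 1 for the mean transgene difference, the transgene at MRI, its difference between facilities, pL2_FXR against the FXR line, and the Lgr5 lines with Notch1fl_fl and Notch2IC_LacZ. The added calls came without replicate 3 of WT at MRI (transgene at MRI), replicate 1 of pL2 at MRI (transgene between facilities, Lgr5 with Notch2IC_LacZ), replicate 2 of that Lgr5 line, and replicate 1 of the Lgr5 line with Notch1fl_fl. Without replicate 2 of WT at MRI, 1 value that was not called with all arrays was called as well. No paired analysis was possible because the labels give no pairing. Groups of 3 arrays limit what can be called.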

Other observations

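H2-Q10, a class I heavy chain gene of the Q region, measured between 4.40 and 5.81 in the 12 arrays without the transgene (WT and the FXR line). On chow at MRI it was 8.08, 8.26 and 7.81 in pL2 against 4.97, 5.81 and 4.63 in WT. On HFD at Freising it was 7.35, 9.08 and 7.71 in pL2 against 4.82, 5.10 and 4.67 in WT, a rise of 3.18 ± 0.57 (limma, adjusted p = 0.00172). At Freising on chow pL2 measured 6.26, 6.45 and 7.33 against 4.68, 5.26 and 4.71, which was not called. The pL2 and WT arrays did not overlap in any of these settings. The Notch lines also carry the transgene, and replicate 2 of Lgr5 with Notch2IC_LacZ, at 5.79, lay within the range of arrays without it. Replicate 3 of Lgr5 with Notch1fl_fl, at 5.90, lay just above that range. Q-region genes are near copies, and how signal divides among them is uncertain.

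Erap1 was lower in WT mice of Freising on chow (6.36, 6.47 and 6.70) than in WT mice of MRI (7.19, 7.53 and 7.32), opposite to Tap1, B2m and Nlrc5. Within groups, however, it followed the 8 genes with r = 0.82, against 0.39 before group means were removed.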
